A study of Rattus norvegicus with 24 samples.

Results

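The Rab GTPases are the family of small GTP-binding proteins whose gene symbol is Rab followed by a number and at most 1 letter. On the Affymetrix rat genome array, 97 of 31042 probe sets mapped to 1 such gene only, and they covered 56 genes. Each gene was represented by its brightest probe set, and 49 of the 56 passed a filter on low values. The 7 that did not were Rab23, Rab36, Rab39a, Rab3c, Rab40b, Rab6b and Rab9b, whose means over all arrays ran from 2.99 to 4.76 on the log2 scale.

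A Rab protein bound to GTP sits on one kind of vesicle or organelle and recruits effectors that move, tether and fuse it. Exchange factors load the GTP, GTPase-activating proteins end the cycle, and a dissociation inhibitor returns the inactive protein to the cytosol. In blood, Rab27 proteins are known for the release of granules by platelets and by cytotoxic lymphocytes, Rab5 and Rab11 for endosome entry and recycling, and Rab32 and Rab38 for lysosome-related organelles.

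Peripheral blood mononuclear cells (PBMCs) of female Wistar rats had been isolated on a Ficoll gradient, and their RNA was extracted together and labelled by a 3′ amplification kit. The 24 arrays made 12 groups of 2 arrays, each array from a separate rat, since the rats were killed at sampling. NOCIA stands for healthy rats (NORA in the labels) and CIA for rats with collagen-induced arthritis (RA in the labels). The arthritic arms were MS (AP in the labels), MTX, PLA and ANE. MS received needle puncture and twirling on both sides, beside the lower spine and between tibia and fibula. MTX was injected with methotrexate and PLA with saline. ANE had isoflurane in place of ether at sampling and no other therapy. NOCIA and CIA were sampled before therapy (baseline), and NOCIA and the 4 arms after 1 hour and 34 days. No age is stated in the labels, a group is 2 rats, and the 4 arms are all set against the same 2 CIA baseline arrays.

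The level of platelet markers differed between rats of one group. A platelet level was taken as the mean of centred log2 values over the 23 measured genes of a 30-gene platelet marker list. It ran from -0.71 to 1.56 and was highest in MS at 34 days replicate 1 (1.56), MS at 1 hour replicate 1 (1.27), PLA at 1 hour replicate 2 (0.92) and ANE at 1 hour replicate 1 (0.84). These 4 platelet-rich arrays had stood apart in earlier work on these data. In 7 of the 12 groups the 2 arrays differed by over 0.5 in platelet level, a limit set after the values were seen. Probe sets at both ends of Gapdh, a measure of RNA quality, differed by 0.01 to 0.20 (3′ minus 5′), and this difference had a slope on the platelet level of 0.04 ± 0.02 (SE). Those of Actb differed by 0.36 to 0.84, with a slope of -0.02 ± 0.04. Mean marker levels of the other cells ran from -1.41 to 0.58 for T cells, -1.22 to 0.82 for B cells, -1.25 to 0.88 for monocytes and -1.23 to 2.13 for neutrophils. Of the markers with a probe set, 18 of 18 T cell, 8 of 8 B cell and 15 of 17 monocyte genes passed the filter. So did 9 of 9 neutrophil, 14 of 14 erythroid and 23 of 23 platelet genes, so passing it does not single out mononuclear cells. In these bulk samples, fewer cells of a type and less RNA per cell cannot be told apart.

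Rab27b, a secretory Rab of dense granules, followed the platelet-rich arrays most steeply. Its log2 value was 8.87 and 8.89 in CIA at baseline and 9.51 and 9.54 in NOCIA at baseline. At 34 days it read 12.53 and 10.56 in MS, 10.70 and 8.53 in MTX, 10.13 and 9.26 in ANE, 9.05 and 8.94 in PLA and 9.25 and 9.70 in NOCIA. The 1-hour arrays gave 11.14 and 9.02 (MS), 9.87 and 8.70 (MTX), 11.42 and 9.92 (ANE), 9.19 and 10.47 (PLA) and 9.30 and 9.96 (NOCIA). The higher array of each of the 7 unequal pairs was the one with the higher platelet level. Within groups Rab27b gained 1.43 ± 0.10 (SE) on the log2 scale per log2 unit of platelet level (limma, adjusted p = 3.06e-08). Its other probe set gave 1.41 ± 0.08.

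Rab26, which acts in secretory granule maturation, read 8.90 and 6.60 in MS at 34 days, and at 1 hour 7.99 and 5.64 (MS), 7.49 and 5.64 (ANE) and 5.85 and 7.12 (PLA). In CIA at baseline it read 5.48 and 5.29. The 4 platelet-rich arrays were the highest of the 24, and MTX at 34 days replicate 1 came next at 7.11. The slope of Rab26 was 1.38 ± 0.11 (limma, adjusted p = 2.31e-07).

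Rab37, known from secretory granules of mast cells, read 10.14 and 8.13 in MS at 34 days, and at 1 hour 9.57 and 8.20 (MS), 9.40 and 7.54 (ANE) and 7.72 and 9.39 (PLA). Only those 4 platelet-rich arrays were above 9, and the next was MTX at 1 hour replicate 1 at 8.47. The slope was 1.12 ± 0.14 (limma, adjusted p = 1.93e-05). Mast cell and basophil markers had mean levels between -0.38 and 0.62. A slope was called in 1 of their 8 tested genes, against 58.3% of all probe sets.

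Rab27a, the close relative of Rab27b that docks lytic granules in cytotoxic lymphocytes, moved the other way. It read 7.83 and 8.70 in MS at 34 days, and at 1 hour 8.14 and 9.45 (MS), 9.11 and 9.79 (ANE) and 9.10 and 8.67 (PLA). In CIA at baseline it read 9.71 and 10.02, and in NOCIA at baseline 10.02 and 10.17. In each of the 7 unequal pairs the array with the higher platelet level had less Rab27a. Its slope was -0.60 ± 0.11 (limma, adjusted p = 0.000715), and its other probe sets gave -0.60 ± 0.12 and -0.49 ± 0.13, both called. Of all probe sets, 38.3% were called lower on the platelet level, with a median slope of -0.13. The NK and cytotoxic markers, which ran from -1.22 to 1.06 over arrays, had 2 of 19 genes called lower on this slope and a median of -0.28. Their part in the result was not tested.

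**Figure D1:**
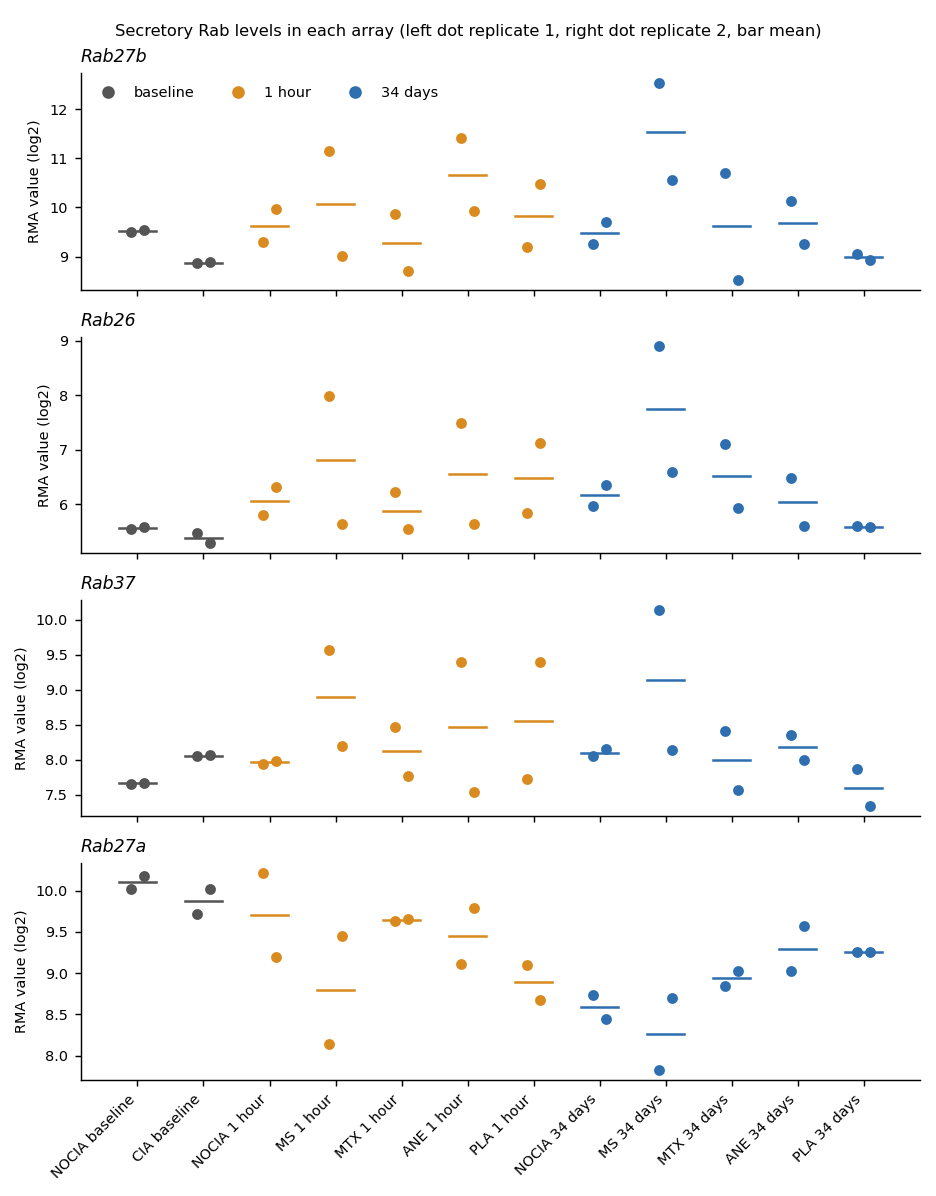
Deposited log2 values of Rab27b, Rab26, Rab37 and Rab27a (y axes, 1 panel each) in the 12 groups (x axis), with a dot for each array and a bar for the group mean. Rab27b, Rab26 and Rab37 peak in MS at 34 days replicate 1 (12.53, 8.90 and 10.14), where Rab27a is lowest (7.83).

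Across the family, 32 of the 49 members tested had a called slope on the platelet level, against 58.3% of all probe sets. The 16 higher slopes stand against 20.0% of all probe sets called higher, and the 16 lower ones against 38.3% called lower. The median slope was -0.02 over the members and -0.13 over all probe sets. After quantile normalization the median of all probe sets was -0.06, and 19 members were called higher and 10 lower. No member called on the deposited values changed sign under it, while Rab12, Rab18, Rab21, Rab43, Rab4b and Rab7b, with slopes between -0.11 and -0.02 as deposited, did. Rab8a, Rab40c, Rab5c, Rab30, Rab4a and Rab20 lost their call under it, and Rab31, Rab3d and Rab15 gained one.

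The dim probe sets had higher slopes as a whole. The median over all probe sets was 0.12 at mean levels from 3.31 to 5.56 and -0.30 at mean levels above 8.18. In that brightest class 16.1% of probe sets were called higher and 59.5% lower. The dimmest class had 30.7% and 11.1%. Of the 49 members, 26 were in the brightest class and 1 was in the dimmest, so the shares over all probe sets are not matched to the members' levels.

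For each role below, the shares over all probe sets were 20.0% called higher and 38.3% called lower. Among the 11 tested Rabs of secretion and exocytosis, 6 were called higher and 2 lower, with a median slope of 0.24. Beside Rab27b, Rab26 and Rab37, the higher ones were Rab10 (0.47 ± 0.09), which carries vesicles to the plasma membrane, Rab13 (0.47 ± 0.15), known from tight junctions, and Rab3b (0.19 ± 0.08), a Rab of regulated exocytosis. The lower ones were Rab27a and Rab8a (-0.18 ± 0.07), which acts in transport from the Golgi to the surface.

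Among the 15 Rabs of early endosomes and recycling, 5 were called higher and 4 lower, with a median of 0.08. The shares over all probe sets were 20.0% and 38.3%. Rab11a, the main Rab of recycling endosomes, read 11.84 and 10.94 in MS at 34 days and 10.71 and 10.50 in CIA at baseline. Its values were lowest in MTX at 34 days replicate 2 (10.44) and highest in MS at 34 days replicate 1. The slope was 0.61 ± 0.06 (limma, adjusted p = 1.01e-06), and its second probe set gave 1.10 ± 0.10. Its relatives Rab25 (0.45 ± 0.09) and Rab11b (0.15 ± 0.06) were called in the same direction, as were Rab22a (0.31 ± 0.09) and Rab17 (0.21 ± 0.07). The dimmer probe sets of Rab11b (0.13 ± 0.08) and Rab22a (0.03 ± 0.11 and -0.15 ± 0.12) were not called. Rab17 moved with the platelet level in 4 of the 7 unequal pairs.

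In the Rab5 group of early endosomes, Rab5a and Rab5c had the opposite sign. Rab5a, which drives early endosome fusion, had a slope of -0.39 ± 0.06 (limma, adjusted p = 0.00036) and was lower in the platelet-rich array of each of the 7 unequal pairs. Rab5c gave -0.21 ± 0.06, Rab14 -0.35 ± 0.10 and Rab4a -0.23 ± 0.10. Rab5b was not called (0.08 ± 0.11), while 2 dimmer probe sets of Rab5b were called higher (0.21 ± 0.08 and 0.27 ± 0.09).

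In the ER to Golgi and Golgi group of 10 tested members, 2 were called higher and 4 lower. Both counts are near the shares of all probe sets, 20.0% and 38.3%. Rab6a, which acts in retrograde transport at the Golgi, read 11.34 and 9.93 in MS at 34 days and 9.89 and 9.63 in CIA at baseline. It was highest in that MS array and lowest in MTX at 34 days replicate 2 (9.37). Its slope was 0.63 ± 0.10 (limma, adjusted p = 0.000182), but a dimmer probe set gave 0.04 ± 0.09.

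The 2 Rab1 genes, both of ER to Golgi transport, differed in sign. Rab1b had a slope of 0.41 ± 0.07, with 3 further probe sets between 0.37 and 0.54, and Rab1a one of -0.24 ± 0.06. Rab2b (-0.40 ± 0.10), Rab33b (-0.38 ± 0.09) and Rab30 (-0.23 ± 0.09) were also called lower. A dimmer probe set of Rab30 had the opposite sign and no call (0.08 ± 0.10).

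In the late endosome and lysosome group of 10, 2 members were called higher and 5 lower, with a median of -0.35. The shares over all probe sets were 20.0% and 38.3%. Rab32, a Rab of lysosome-related organelles, read 6.29 and 7.75 in MS at 34 days, 6.14 and 8.55 in ANE at 1 hour, 8.27 and 8.09 in PLA at 1 hour and 7.66 and 7.78 in CIA at baseline. It was lowest in ANE at 1 hour replicate 1 and highest in NOCIA at 34 days replicate 1 (8.73). The slope of Rab32 was -0.77 ± 0.19 (limma, adjusted p = 0.00424), with the sign in 7 of 7 unequal pairs. Rab20 (-0.57 ± 0.22), Rab24 (-0.55 ± 0.11), Rab9a (-0.44 ± 0.09) and Rab29 (-0.38 ± 0.12) were called lower. Rab7a, which leads late endosomes to lysosomes, was called higher (0.38 ± 0.07), as was Rab34 (0.43 ± 0.09). A dimmer probe set of Rab34 was not called (0.02 ± 0.09). The 2 dimmer probe sets of Rab20 were not called (-0.20 ± 0.15 and 0.14 ± 0.08).

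Of the 3 tested Rabs of lipid droplets, cilia and other sites, Rab28 was called higher (0.27 ± 0.08) and Rab40c lower (-0.20 ± 0.07). Over all members, 29 of 33 other probe sets had the sign of the brightest. Where the brightest was called, 15 other probe sets were called in its direction, 8 were not called and 0 were called in the opposite one.

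**Figure D2:**
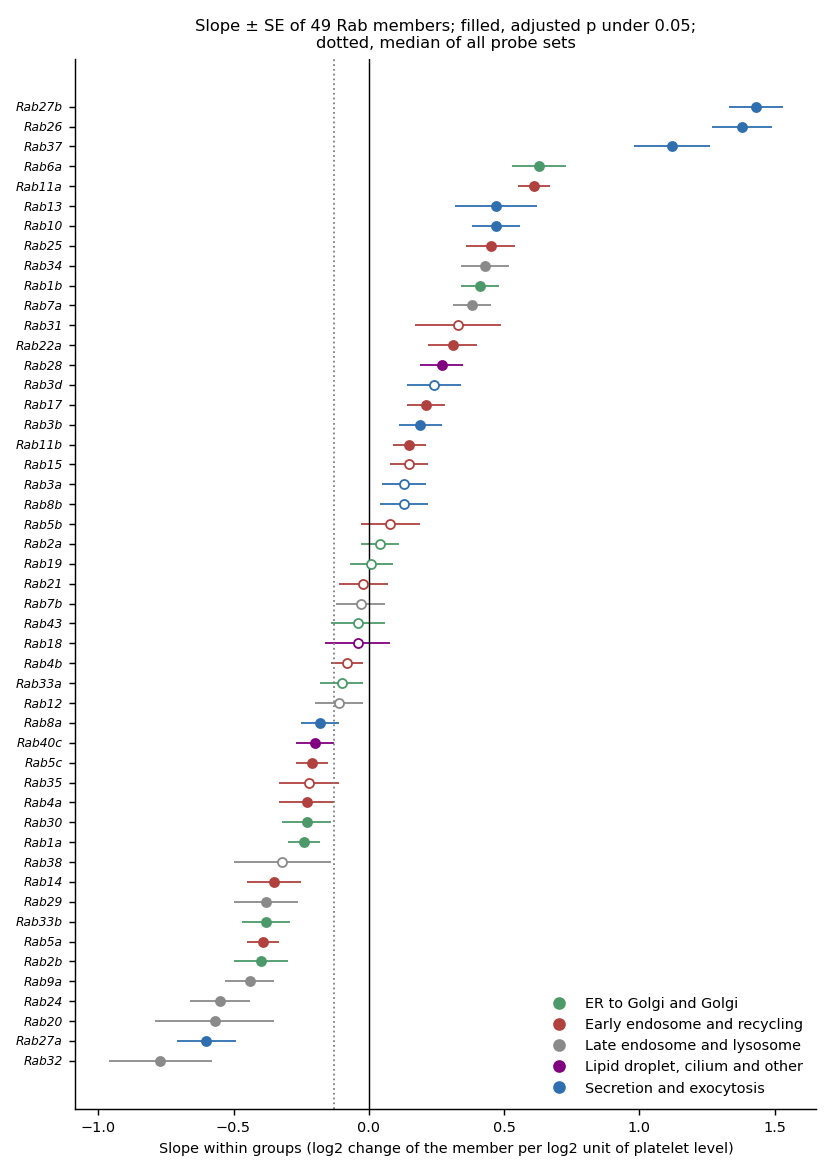
Slope within groups of the 49 members (y axis) in log2 units per log2 unit of platelet level (x axis), with bars for the SE, coloured by role, filled where called, and a dotted line at the median of all probe sets (-0.13). Rab27b (1.43), Rab26 (1.38) and Rab37 (1.12) stand apart at the top and Rab32 (-0.77) is lowest.

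Monocyte markers were called lower along the same slope in 11 of 15 tested genes (median -0.77), and T cell markers in 10 of 18 (median -0.47). B cell markers were called lower in 3 and higher in 1 of 8, neutrophil markers lower in 2 of 9 (median -0.70) and erythroid markers higher in 3 of 14. Over all probe sets 38.3% were called lower and 20.0% higher. The B cell, neutrophil and erythroid counts were near or under those shares. The platelet markers, which define the level, were called higher in 21 of 23. The part of these cells in the slopes of single Rabs was not tested.

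The number of called slopes depended on the platelet-rich arrays. Without the 4 arrays that stood apart, 5 members were called: Rab27b (1.56 ± 0.15), Rab26 (1.01 ± 0.11), Rab37 (0.69 ± 0.12), Rab11a (0.53 ± 0.09) and Rab6a (0.45 ± 0.11). In the 34-day groups alone 5 were called, with Rab32 (-0.99 ± 0.19) beside Rab27b, Rab26, Rab37 and Rab11a, and in the 1-hour groups alone 16. Leaving out MS at 1 hour replicate 1 or replicate 2 left 20. Rab27b, Rab26, Rab37 and Rab11a were called under every one of the 36 alternatives run. Leaving out either array of a group gives the same slope, so these alternatives are not all different fits.

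**Figure D3:**
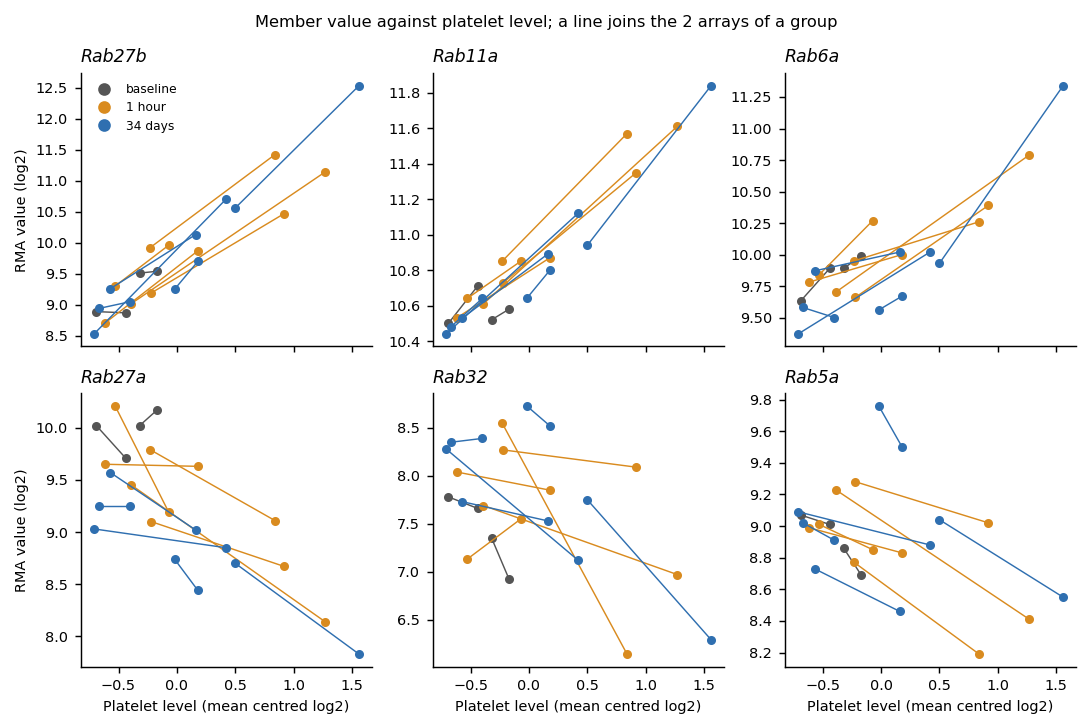
Deposited log2 value (y axes) of Rab27b, Rab11a, Rab6a, Rab27a, Rab32 and Rab5a against the platelet level of each array (x axes), with a line between the 2 arrays of a group. The lines of the first 3 climb with the platelet level (slopes 1.43, 0.61 and 0.63) and those of Rab27a, Rab32 and Rab5a descend (-0.60, -0.77 and -0.39).

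**Figure D4:**
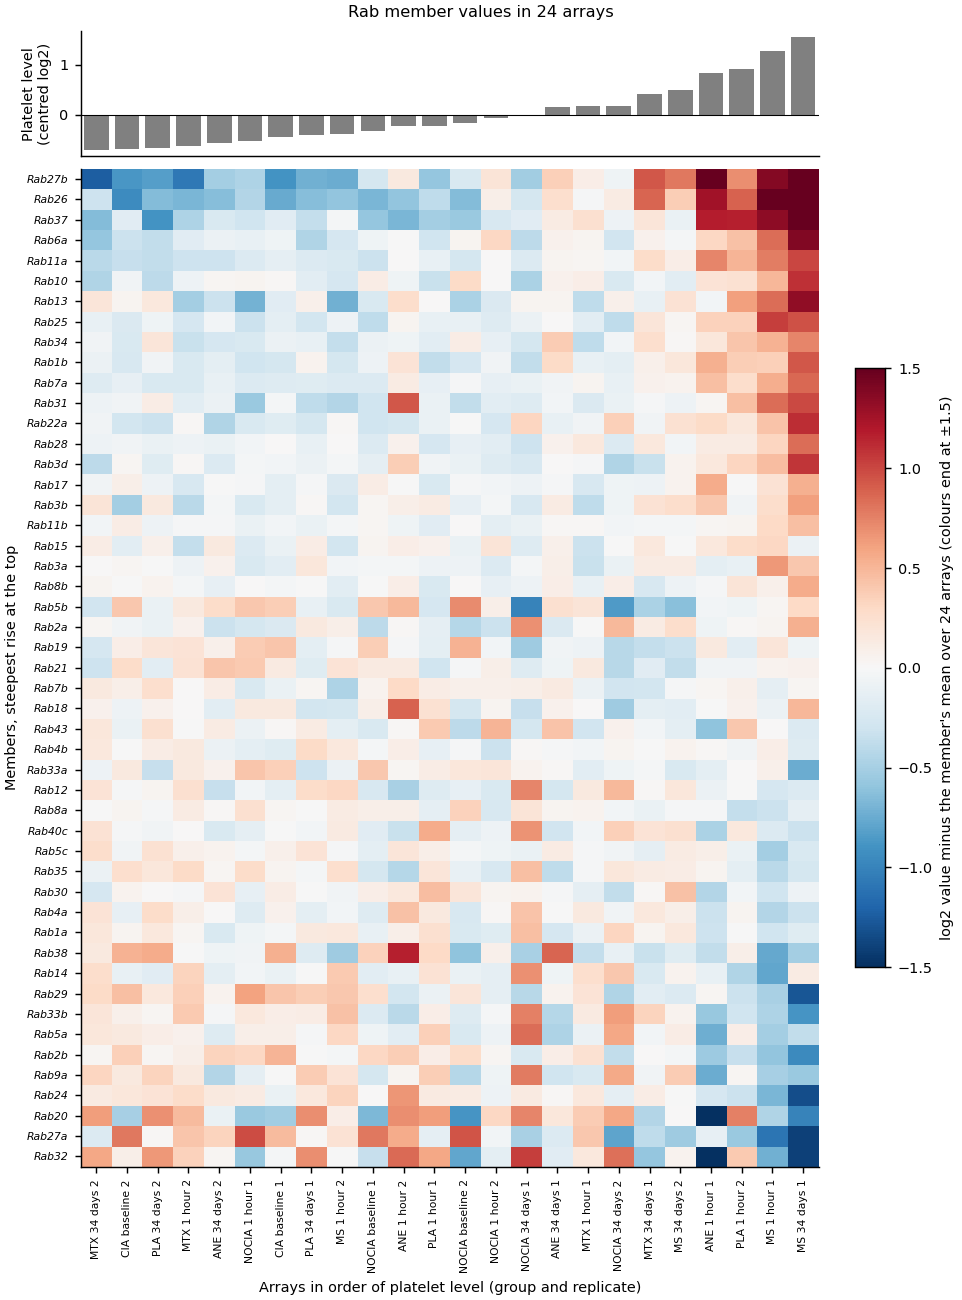
Log2 value of each of the 49 members minus its mean over the 24 arrays (colour), with members in order of slope (rows) and arrays in order of platelet level (columns), and bars above for that level. Members at the top are reddest in the 4 arrays at the right end, whose platelet levels run from 0.84 to 1.56, and members at the bottom are bluest there, with exceptions such as Rab32 and Rab20 in PLA at 1 hour replicate 2.

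The promoter windows of some steep members are given to show the sequence next to the starts of genes that moved together and in opposition. RefSeq windows on GRCr8, from 250 bases before to 50 bases after the start, matched 45 of the 56 genes, 40 of them past the filter. The 2 highest and 2 lowest called slopes among printable windows are shown. Printable windows excluded those on a chromosome that was left out by rule. Rab27b, Rab26 and Rab37, which rose more steeply, had no printable window and are not shown. They are Rab11a (chr8:74141635-74141934, minus strand), Rab6a (chr1:164369783-164370082, plus strand), Rab27a (chr8:82663123-82663422, plus strand) and Rab32 (chr1:6781209-6781508, minus strand). Capitals mark CCGGAA or its reverse complement TTCCGG, a form of ETS factor sites. Other forms were not searched, so a stretch without capitals may still hold one.

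Rab11a: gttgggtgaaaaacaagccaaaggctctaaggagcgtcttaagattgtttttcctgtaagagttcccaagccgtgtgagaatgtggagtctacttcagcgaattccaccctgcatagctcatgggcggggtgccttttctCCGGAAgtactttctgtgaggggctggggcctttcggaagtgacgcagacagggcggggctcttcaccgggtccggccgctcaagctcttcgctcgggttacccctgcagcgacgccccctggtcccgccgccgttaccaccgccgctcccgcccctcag

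Rab6a: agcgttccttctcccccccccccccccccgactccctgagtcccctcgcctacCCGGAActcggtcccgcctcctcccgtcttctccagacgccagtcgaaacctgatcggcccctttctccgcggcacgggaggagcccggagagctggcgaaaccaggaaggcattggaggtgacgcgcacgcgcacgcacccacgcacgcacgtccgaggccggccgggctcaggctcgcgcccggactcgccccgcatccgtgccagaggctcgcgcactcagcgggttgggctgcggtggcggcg

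Rab27a: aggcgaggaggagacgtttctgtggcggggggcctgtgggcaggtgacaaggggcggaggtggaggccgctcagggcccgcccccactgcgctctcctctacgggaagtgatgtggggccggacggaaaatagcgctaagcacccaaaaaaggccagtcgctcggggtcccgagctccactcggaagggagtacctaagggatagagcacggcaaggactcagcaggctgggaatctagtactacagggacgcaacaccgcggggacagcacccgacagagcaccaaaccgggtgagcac

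Rab32: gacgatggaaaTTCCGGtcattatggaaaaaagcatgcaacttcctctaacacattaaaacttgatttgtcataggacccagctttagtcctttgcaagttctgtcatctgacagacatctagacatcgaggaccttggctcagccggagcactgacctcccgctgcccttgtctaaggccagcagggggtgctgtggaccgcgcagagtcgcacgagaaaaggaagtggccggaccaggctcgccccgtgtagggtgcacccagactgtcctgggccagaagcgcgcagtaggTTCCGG

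The letters CCGGAA, searched on both strands, were in the windows of Rab11a (1 match), Rab6a (1) and Rab32 (2) and not in that of Rab27a. They were in 7 of 12 windows of members with a higher slope, 2 of 14 with a lower slope and 3 of 14 with no call. Over all windows they were in 5004 of 33469. Among all genes tested the share was 17.8% for those with a higher slope and 35.8% for those with a lower one, an order opposite to that among the members. These shares were not tested. The letters GATAA, of GATA factor sites, were in 1 of 12 windows of members with a higher slope and 3 of 14 with a lower one. Among all genes tested the shares were 17.5% and 15.6%, and 26.5% over all windows. TGTGGT, of RUNX sites, was in 1 of 12 and 2 of 14, against 12.3% and 12.5% among all genes tested and 17.3% over all windows. No base of a printed window lay in 2 of the motifs. A match is a run of letters and not a measured site.

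The genes that load, switch off and read the Rabs had called slopes about as often as all probe sets. Of 159 tested genes of exchange factors, GTPase-activating proteins, effectors, prenylation and granule secretion, 89 were called, or 56.0%, against 58.3% of all probe sets. The 24 higher ones made 15.1%, against 20.0% of all, and the 65 lower ones 40.9%, against 38.3%. The exchange factors had 4 higher and 21 lower of 41, the GTPase-activating proteins 4 and 13 of 28, the effectors 9 and 14 of 48, the granule secretion genes 7 and 16 of 37, and the dissociation and prenylation genes 0 and 1 of 5.

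The 10 steepest rises were led by Dennd2c (1.75 ± 0.13), a DENN domain exchange factor, and Rabgap1l (1.38 ± 0.11), a GTPase-activating protein. Osbpl1a (1.13 ± 0.06), which binds Rab7, Fyco1 (1.10 ± 0.09), which links Rab7 to kinesin, and Bicd2 (1.13 ± 0.10), which links Rab6 to dynein, followed. Ap3b1 (1.11 ± 0.11) and Ap3s1 (0.91 ± 0.08) are subunits of the AP-3 adaptor of lysosome-related organelles. Gorasp2 (0.96 ± 0.08), a Golgi stacking protein, and the SNAREs Stx11 (0.89 ± 0.07) and Vamp7 (0.80 ± 0.09) completed them. Sytl4 (0.73 ± 0.11), the Rab27 effector granuphilin, was called as well, at a low median level of 4.58. The effector Sytl1 was called lower (-0.41 ± 0.15).

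The steepest falls were Mical1 (-0.74 ± 0.14), an actin-oxidising effector, Myo5a (-0.69 ± 0.11), the myosin of Rab27a cargo, the exchange factor Rin2 (-0.65 ± 0.25) and the GTPase-activating proteins Tbc1d9 (-0.63 ± 0.21) and Tbc1d8 (-0.60 ± 0.16). Gdi2 (-0.41 ± 0.07), the dissociation inhibitor, was the 1 called gene of its group. Without the 4 arrays that stood apart, 10 of these 159 genes were called.

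The comparison of MS at 34 days with CIA at baseline asks how the family differed after needle stimulation. Of the 49 members, 6 were called, against 6.96% of all probe sets. The 3 higher ones stand against 1.52% of all probe sets called higher and the 3 lower ones against 5.44% called lower. The median was 0.08 over the members and -0.16 over all probe sets (-0.05 after quantile normalization, when 2 members were called higher and 3 lower). The 6 were not those with the largest differences. Rab27b differed by 2.66 ± 0.81 (limma, adjusted p = 0.0542) and Rab26 by 2.37 ± 0.79 (adjusted p = 0.0650), and neither was called.

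Rab27a fell by 1.60 ± 0.41 (limma, adjusted p = 0.0404), from 9.71 and 10.02 to 7.83 and 8.70, and its other probe sets by 2.04 and 1.34, both called. Rab29, which recruits the kinase LRRK2, read 9.24 and 10.31 against 10.93 and 10.97, a difference of -1.18 ± 0.33 (adjusted p = 0.0467). Rab33a, a Golgi Rab, read 5.62 and 6.13 against 6.72 and 6.51, or -0.74 ± 0.18 (adjusted p = 0.0396). For these 3 the MS arrays did not overlap the baseline ones.

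Among the higher members, Rab22a of early endosomes read 9.50 and 8.62 against 8.22 and 8.12, or 0.89 ± 0.25 (limma, adjusted p = 0.0487), while its 2 dimmer probe sets gave 0.10 and 0.30 with no call. Rab3b read 6.21 and 5.85 against 5.44 and 5.08, or 0.76 ± 0.20 (adjusted p = 0.0431). Rab2a, of ER to Golgi transport, read 10.70 and 10.43 against 9.95 and 10.12, or 0.53 ± 0.15 (adjusted p = 0.0499), and its second probe set gave 0.84 (adjusted p = 0.146). These groups did not overlap either, as in 28 of the 49 members, against 63.7% of all probe sets.

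The 6 calls lay close to the threshold and depended on single arrays. None was left when any 1 of 15 of the 24 arrays was left out, among them both CIA baseline arrays and MS at 34 days replicate 1. Leaving out either MS array at 1 hour gave 10, and leaving out MS at 34 days replicate 2 gave 23, where the array that remained was assumed to vary like the other groups. With the platelet level as a covariate the difference of Rab27b was 0.38 ± 0.26, that of Rab26 0.17 ± 0.31 and that of Rab27a -0.64 ± 0.30, and no member was called. The platelet markers were higher in MS in 23 of 23 genes (median 1.78), of which 1 was called, against 1.52% of all probe sets called higher. T cell, NK and monocyte markers had medians of -1.18, -1.29 and -0.99. The part of these cells beyond that covariate was not tested. As for RNA quality, Actb had a 3′ minus 5′ difference of 0.36 and 0.36 in MS against 0.54 and 0.59 in CIA at baseline, and Gapdh one of 0.14 and 0.12 against 0.02 and 0.05, so the groups did not overlap in either control. The part of RNA quality in these differences was not tested.

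Of the 159 regulator and secretion genes, 14 were called in MS at 34 days, or 8.81%, against 6.96% of all probe sets. The 1 higher gene made 0.629%, against 1.52% of all, and the 13 lower ones 8.18%, against 5.44%. The larger falls were Plin3 (-1.39 ± 0.32), which binds Rab9, Trappc6b (-1.38 ± 0.35), Ankrd27 (-1.25 ± 0.35), an exchange factor for Rab21, Bloc1s6 (-1.22 ± 0.26), a BLOC-1 subunit, and Trappc11 (-1.16 ± 0.30). Hook3 was the higher one (0.59 ± 0.16). These calls too were 0 with the platelet level in the model.

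The comparison of NOCIA at 34 days with NOCIA at baseline follows untreated healthy rats over the study. Of the 49 members, 8 were called. The 5 higher ones stand against 6.31% of all probe sets called higher and the 3 lower ones against 5.66% called lower. The groups did not overlap in 33 members, against 65.9% of all probe sets. The median was -0.02 over the members and over all probe sets. The platelet markers had a median of 0.39 here, with none of 23 called.

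Rab2a read 10.86 and 10.66 at 34 days against 9.78 and 9.74 at baseline, a rise of 1.00 ± 0.15 (limma, adjusted p = 0.00098). Only MS at 34 days replicate 1 (10.70) lay between these 2 arrays, and the other 21 were below both. The second probe set of Rab2a gave -0.65 (adjusted p = 0.382), so the mean of both probe sets differed by 0.17 and was not called.

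Rab5b read 6.58 and 6.74 against 7.99 and 8.29, a difference of -1.49 ± 0.25 (limma, adjusted p = 0.00161), and these were the 2 lowest of the 24 arrays. Its dimmer probe sets past the filter gave -0.48 and -0.01 with no call. Rab5a moved the other way, from 8.86 and 8.69 to 9.76 and 9.50, or 0.86 ± 0.26 (adjusted p = 0.0393), and its second probe set gave 1.43 (adjusted p = 0.00872).

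Rab9a, which returns receptors from late endosomes to the Golgi, read 9.88 and 9.67 against 8.84 and 8.67, or 1.02 ± 0.31 (limma, adjusted p = 0.0419). Rab12, which sends transferrin receptor to lysosomes, read 9.45 and 9.21 against 8.48 and 8.60, or 0.79 ± 0.21, and its second probe set gave 0.85 with a call. Rab40c, part of a ubiquitin ligase, read 7.81 and 7.49 against 6.97 and 7.00, or 0.67 ± 0.19.

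Rab27a read 8.74 and 8.44 against 10.02 and 10.17, a difference of -1.51 ± 0.41 (limma, adjusted p = 0.0242), and its other probe sets fell by 1.46 and 1.28, both called. With the platelet level as a covariate its difference was -1.31 (adjusted p = 0.00104). Rab27b was 9.25 and 9.70 against 9.51 and 9.54, or -0.05 ± 0.81. Rab19 read 6.22 and 6.34 against 7.12 and 7.28, or -0.92 ± 0.19 (adjusted p = 0.00545). Rab32 and Rab20 differed by 1.49 ± 0.59 and 1.43 ± 0.56 with no call (adjusted p = 0.122 and 0.120).

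The healthy rats also differed in cell markers between those times. B cell markers were called lower in 6 of 8 genes (median -1.58), NK and cytotoxic markers in 3 of 19 (median -1.11) and T cell markers in 2 of 18, and 1 of 9 neutrophil markers was called higher (median 0.90). Over all probe sets 5.66% were called lower and 6.31% higher. The 3′ minus 5′ differences overlapped, at 0.65 and 0.64 against 0.56 and 0.84 for Actb and 0.11 and 0.09 against 0.06 and 0.20 for Gapdh. The part of these markers in the Rab differences was not tested. Leaving out 1 of the 4 arrays compared gave 2 or 3 called members, and leaving out 1 of the others gave 6 to 11. With the platelet level as a covariate 14 were called, among them Rab32 (1.74, adjusted p = 0.0064).

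Among the regulator and secretion genes, 25 of 159 were called in NOCIA at 34 days, against 2478 of 20690 probe sets in all. The 7 higher ones made 4.40%, against 6.31% of all, and the 18 lower ones 11.3%, against 5.66%. Snap23, a SNARE of granule release, had the largest rise (2.15 ± 0.26), ahead of the GTPase-activating protein Tbc1d15 (1.58 ± 0.33). Rab3ip (-1.89 ± 0.53), the exchange factor of Rab8, Inpp5b (-1.57 ± 0.22), a Rab5 effector, and Trappc4 (-1.36 ± 0.18) fell.

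**Figure D5:**
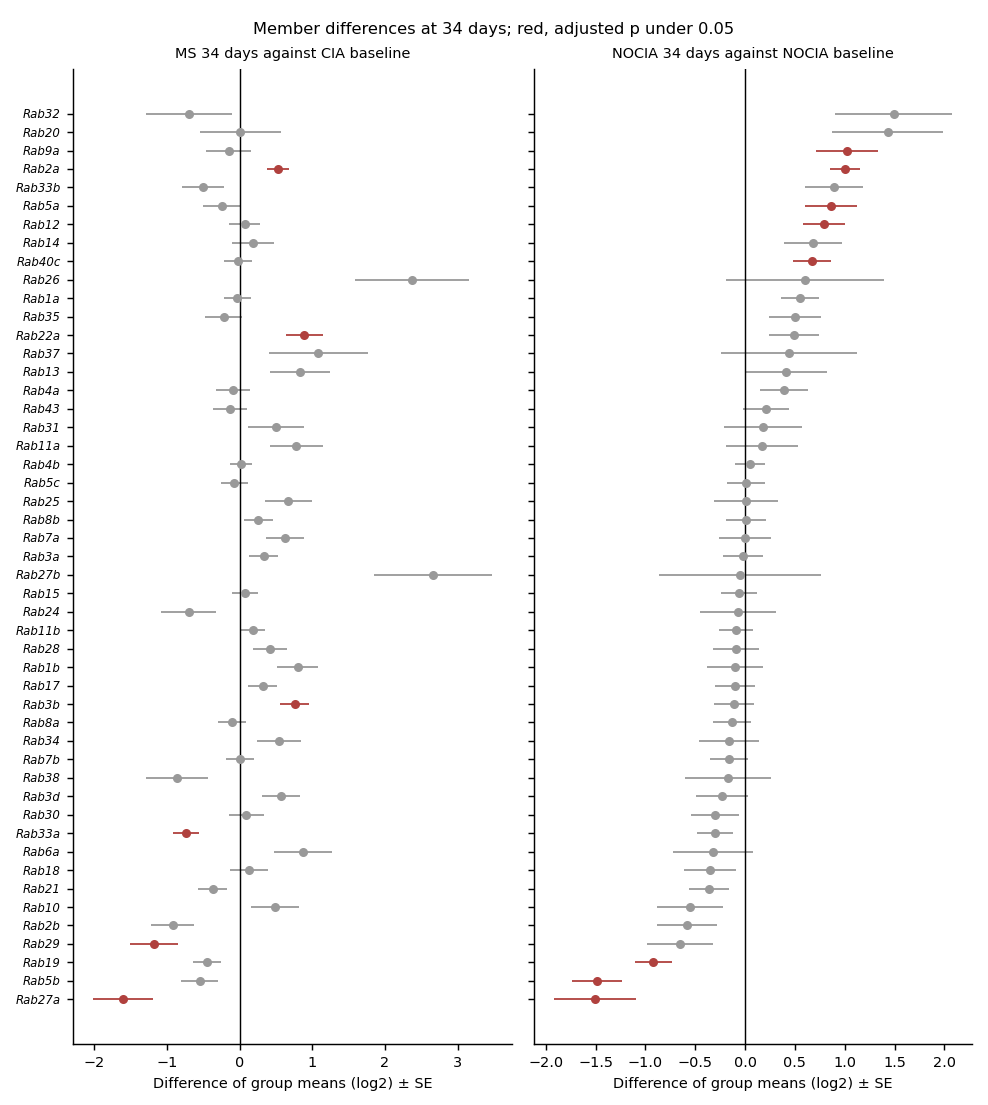
Difference of group means (x axes, log2, with bars for the SE) of the 49 members (y axis) for MS at 34 days against CIA at baseline and for NOCIA at 34 days against NOCIA at baseline, with called members in red. Rab27a is called lower in both (-1.60 and -1.51) and Rab2a higher in both (0.53 and 1.00), while Rab27b differs by 2.66 in the first and -0.05 in the second.

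No member was called by limma in the other 12 comparisons of 2 groups, nor by limma-trend with a robust prior. The counts given here at an unadjusted p under 0.05 are set against the share of all probe sets that passed it. CIA against NOCIA at baseline sets arthritic beside healthy rats and had 0 called members against 0.00483% of all probe sets and 0 unadjusted against 3.81%. Rab2a (0.27 ± 0.15), Rab38 (0.65 ± 0.43) and Rab3b (-0.28 ± 0.20) had the largest statistics, and Rab27b differed by -0.64 ± 0.81.

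After 34 days, MTX against CIA at baseline had 0 called members against 0.00% and 5 unadjusted against 5.85%, led by Rab5b (-0.76 ± 0.25), Rab19 (-0.56 ± 0.19) and Rab3b (0.53 ± 0.20). ANE had 0 against 0.00% and 0 unadjusted against 1.48%, with Rab3b (0.38 ± 0.20) and Rab5a (-0.44 ± 0.26) first. PLA had 0 against 0.00% and 2 unadjusted against 4.85%, with Rab33a (-0.58 ± 0.18) and Rab20 (1.20 ± 0.56) first. Rab3b was thus above CIA baseline in each of the 4 arms at 34 days, all measured against the same 2 arrays.

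After 1 hour, MS had 0 called against 0.00967% and 3 unadjusted against 8.30%, and these were Rab38 (-1.17 ± 0.43), Rab27a (-1.07 ± 0.41) and Rab2b (-0.75 ± 0.30). MTX had 0 against 0.0145% and 0 unadjusted against 1.24%. ANE had 0 against 0.0338% and 4 unadjusted against 10.8%, namely Rab3b (0.57 ± 0.20), Rab27b (1.79 ± 0.81), Rab1b (0.62 ± 0.28) and Rab5a (-0.56 ± 0.26). PLA had 0 against 0.00% and 4 unadjusted against 6.89%, namely Rab27a (-0.98 ± 0.41), Rab5b (-0.54 ± 0.25), Rab19 (-0.41 ± 0.19) and Rab20 (1.20 ± 0.56). NOCIA had 0 against 0.00483% and 1 unadjusted, Rab43 (0.53 ± 0.23), against 3.57%.

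MS against PLA at 34 days sets needle stimulation beside saline injection and had 0 called members against 0.00%, and 15 unadjusted against 23.2%. With an unadjusted p under 0.05 and over 2-fold, 6 members passed against 8.36% of all probe sets. These are the p and fold thresholds of the study, applied here without its removal of genes by MAS5 detection calls. They were Rab27b (2.55 ± 0.81), Rab26 (2.16 ± 0.79), Rab37 (1.54 ± 0.68), Rab6a (1.09 ± 0.40), Rab32 (-1.35 ± 0.59) and Rab29 (-1.01 ± 0.33), with adjusted p from 0.179 to 0.198 (limma). Without MS at 34 days replicate 2 the count of called members was above 0. MS was then 1 rat whose spread was taken from the other groups.

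MS against MTX at 34 days had 0 called against 0.00% and 8 unadjusted against 14.4%, led by Rab3d (0.92 ± 0.26) and Rab22a (0.72 ± 0.25). The count was above 0 without MS at 34 days replicate 2, with the same limit of 1 rat in MS. MTX against PLA had 0 against 0.00% and 0 unadjusted against 0.739%, with Rab19 (-0.32 ± 0.19) first.

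Over the 12 groups together, 1 member differed by the moderated F test of limma, against 2.26% of all probe sets. It was Rab2a (adjusted p = 0.0315), whose group means spanned 1.00 from 9.76 in NOCIA at baseline to 10.76 in NOCIA at 34 days. Rab5b came next (adjusted p = 0.0646), with means from 6.66 to 8.14. Rab27b had the widest span of group means (2.66) and was not called. The count was 0 without any 1 of 13 arrays. It was higher without MS at 34 days replicate 2, where MS at that time was 1 rat.

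The 34-day change of each arm was also set against that of NOCIA. In ANE, 2 members were called, against 2.86% of all probe sets. The change of Rab2a minus that in NOCIA was -1.14 ± 0.22 (limma, adjusted p = 0.0154), where ANE at 34 days read 9.95 and 9.85 beside 9.95 and 10.12 at CIA baseline. For Rab5b it was 1.37 ± 0.35 (adjusted p = 0.0491), with 7.83 and 7.86 beside 7.95 and 7.99. Rab5a (-1.30 ± 0.36, adjusted p = 0.0648) and Rab9a (-1.46 ± 0.44, adjusted p = 0.0848) came next and were not called. Neither call held on the mean of a gene's probe sets (-0.23 ± 0.34 for Rab2a and 0.54 ± 0.26 for Rab5b), or without any 1 array of CIA baseline, NOCIA baseline or ANE at 34 days. The change of MS minus that of NOCIA had 0 called members against 0.0338% and 14 unadjusted against 19.9%, led by Rab33b (-1.40 ± 0.41). That of MTX had 0 against 0.0242% and 4 unadjusted against 7.50%, among them Rab2a (-0.79 ± 0.22), and that of PLA 0 against 0.00967% and 6 unadjusted against 9.80%, among them Rab2a (-0.84 ± 0.22) and Rab5b (1.01 ± 0.35). The 4 differences share the NOCIA and CIA baseline arrays and NOCIA at 34 days.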

How the data were processed

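Total RNA of PBMCs from 24 rats was hybridised to 1-colour Affymetrix rat genome arrays. The authors deposited log2 levels, made by RMA in affy according to the submitters' processing notes, without versions. The study's methods describe MAS5 for these arrays and do not name RMA. With a range of 2.18 to 15.02 and near-equal array medians (5.49 to 5.58) the values were taken as RMA output. Array number limits the precision, and no dates or batches were given. Of 31099 probe sets, 57 controls were left out, 20826 had 1 gene symbol and 436 several (3 of them Rab, left out). The filter on low values asked for a value over the 40th percentile on 2 or more arrays and left 20690 probe sets.

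Group coefficients over all 24 arrays (12 residual degrees of freedom) and the within-group slope on the platelet level (11) were fitted with limma 3.58.1 in R 4.3.3 (lmFit, eBayes), with Benjamini-Hochberg adjustment over all probe sets kept and a threshold of 0.05. All adjusted p-values are from these fits. An exact two-sided test of 2 arrays against 2 cannot go below p = 0.333, so p-values rest on the pooled spread between rats. That spread was unequal. The SD over probe sets of the difference between the 2 arrays was 0.876 in MS at 1 hour and 0.836 in MS at 34 days. It was 0.23 in NOCIA at baseline and 0.309 in NOCIA at 34 days. A pooled SE is too small for groups with a wide spread and too large for those with a narrow one. All members with a called slope were named. In the comparisons the called members were named by size, up to 10 in each direction. Members nearest to a call were added where fewer than 5 were called. Members, lists and tests were chosen with earlier results of these data known. The fits were tested on simulated data. Sequences came from RefSeq (GRCr8); figures used Python 3.11.15 and matplotlib 3.10.9.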

Additional observations from a re-analysis of the deposited data

Results flagged for a closer look

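Both members whose 34-day change in ANE differed from that in NOCIA are listed because the difference between the changes itself passed the test (limma, adjusted over all probe sets). The difference of the changes, ANE minus NOCIA, was -1.14 for Rab2a and 1.37 for Rab5b. Rab2a lost its call under 8 of 33 alternatives, among them the mean of its probe sets and leaving out any 1 array of CIA baseline, NOCIA baseline or ANE at 34 days. Rab5b lost it under 23 of the 33.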

How the results depend on the processing

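The called members named in the report gave 48 results and 1692 alternative values, of which 1267 kept direction and call, 423 kept direction and lost the call, and 2 reversed. Both reversals were slopes without the 4 arrays that stood apart, -0.04 for Rab17 and 0.02 for Rab30. For the slopes, leaving out either array of a group is the same fit counted under both arrays. Alternative values are counts of called members unless said otherwise, and the cause of each change was not tested.

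With array weights the counts were 0 for MS 34 days against CIA baseline, 4 for MTX 34 days, 4 for PLA 34 days, 18 for NOCIA 34 days, 7, 13 and 11 for the 34-day changes of MTX, ANE and PLA minus that of NOCIA, and 16 for the 12 groups. Without the 4 arrays that stood apart they were 1 for MS 34 days, 17 for NOCIA 34 days, 2 for ANE 1 hour, 3, 9 and 5 for the changes of MTX, ANE and PLA, 13 for the 12 groups and 5 for the slope. With the platelet level as a covariate they were 0 for MS 34 days, 14 for NOCIA 34 days, 8 and 3 for the changes of ANE and PLA, and 8 for the 12 groups. With only the groups compared they were 1 for CIA against NOCIA baseline, 0 for MS 34 days, 1 for PLA 34 days and 20 for NOCIA 34 days; this setting was not run for the changes, the 12 groups or the slope. Limma-trend gave 3 for MS 34 days, 1 for the change of ANE and 0 for the 12 groups. Quantile normalization gave 4 for the change of ANE and 2 for the 12 groups, no filter 1 for the change of ANE, and the mean of all probe sets 0 for both. The slope gave 5 in the 34-day groups alone and 16 in the 1-hour groups alone.

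Leaving out 1 array gave 0 to 23 for MS 34 days (main 6), 2 to 11 for NOCIA 34 days (8), 0 to 4 for MS 1 hour, 0 to 23 for MS against PLA, 0 to 20 for MS against MTX and 0 to 16 for the change of MS (each 0), 0 to 6 for the change of ANE (2), 0 to 7 for the 12 groups (1) and 20 to 32 for the slope (32). The highest counts for MS 34 days, MS against PLA, MS against MTX, the change of MS and the 12 groups came without MS 34 days replicate 2, that for MS 1 hour without MS 1 hour replicate 2, that for NOCIA 34 days without either MS 1 hour array, and that for the change of ANE without either MS array at 1 hour or 34 days. The change of ANE had 0 without NOCIA 34 days replicate 1 or any array of NOCIA baseline, CIA baseline or ANE 34 days. The other counts stayed at 0. A group that lost an array was 1 rat whose spread was taken from the other groups. The share of all probe sets called is not given for these fits, so the counts are not set against it.

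For the 159 regulator and secretion genes, the slope count of 89 was 10 without the 4 arrays, 11 and 44 in the 34-day and 1-hour groups alone, and 57 to 97 leaving out 1 array. The 14 for MS 34 days became 0 with array weights, the covariate or only the groups compared, 1 without the 4 arrays and 0 to 83 leaving out 1 array. The 25 for NOCIA 34 days became 73, 43, 64 and 65 under those 4 settings and 5 to 31 leaving out 1 array.

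Each array came from a separate rat, and the main fits used no pairing by replicate number. Same-number deviations correlated between -0.76 and 0.80 over 66 pairs of groups (median -0.01). In the 7 groups with unequal platelet levels, replicate 1 had the higher level in all but PLA at 1 hour. The replicate block gave 1 for the change of ANE and 24 regulator genes for MS 34 days, and moved no other count by over 1.5 times. Under it the slopes of Rab11b, Rab17, Rab20, Rab30, Rab3b and Rab4a lost their call. The part of replicate order in the slopes beyond this block was not tested.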
